A study of Mus musculus with 6 samples.

Results

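The genes described here are 10 feedback inhibitors of MAP kinase signalling, read in mouse T cells that had or lacked Stim1. They are 8 dual-specificity phosphatase genes (Dusp1, Dusp2, Dusp4, Dusp5, Dusp6, Dusp7, Dusp10 and Dusp16) and 2 Sprouty genes (Spry1 and Spry2). They were taken by symbol, and all 10 were found among the 23393 rows of the table that name a gene. For all libraries, naive CD4 T cells from the C57BL/6 strain were kept for 2 days on plate-bound antibodies to CD3 and CD28. The cytokines IL-6, IL-1b and also IL-23 were added, to give cells that the labels call pathogenic Th17 cells. The group called Stat3C here had the genotype Stat3CSTOPfl/fl CD4-Cre, and the group called Stim1KO Stat3C had Stim1fl/fl Stat3CSTOPfl/fl CD4-Cre, with 3 libraries each. Both groups thus carry STAT3C, a constitutively active STAT3 released when Cre, driven by the Cd4 promoter, removes a stop cassette, so no library shows cells with unaltered STAT3. The comparison is between cells without and with the floxed alleles of Stim1, which encodes the calcium sensor STIM1.

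MAP kinases (ERK, JNK and p38) are switched on by phosphorylation of a threonine and a tyrosine, and the MAP kinase phosphatases (MKPs) of the DUSP family remove both phosphates. Many DUSP genes are transcribed in response to the very kinases that their products silence, which makes them a feedback loop and a common transcript readout of recent MAP kinase activity. Sprouty proteins act further up, between receptors and the RAS-RAF-ERK chain, and are also induced by ERK signalling. In T cells the antigen receptor feeds this network through diacylglycerol and RAS, beside the calcium branch that STIM1 serves.

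What the 8 phosphatases share is a short catalytic loop. The coding stretches below show it for each of them, from the transcript sequences of GENCODE mouse release 21 (GRCm38), 5′ to 3′ on the coding strand, with 3 codons of flank on either side of the 8 codons of the loop. Capitals mark the codon of the catalytic cysteine and that of the arginine that binds the phosphate. The last line gives Styx, a relative without phosphatase activity that also appears in the results, whose first marked codon encodes no cysteine.
Dusp1: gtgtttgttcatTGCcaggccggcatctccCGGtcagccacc
Dusp2: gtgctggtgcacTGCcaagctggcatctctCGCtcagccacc
Dusp4: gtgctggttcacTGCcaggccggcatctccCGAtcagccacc
Dusp5: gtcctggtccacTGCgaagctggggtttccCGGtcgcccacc
Dusp6: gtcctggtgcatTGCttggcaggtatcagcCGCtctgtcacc
Dusp7: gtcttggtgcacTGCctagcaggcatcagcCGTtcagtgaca
Dusp10: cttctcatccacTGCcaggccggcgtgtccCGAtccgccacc
Dusp16: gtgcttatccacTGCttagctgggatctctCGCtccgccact
Styx: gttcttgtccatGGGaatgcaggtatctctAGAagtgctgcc
Dusp4 and Dusp1 differ at 4 of these 42 bases, the fewest of any pair shown, and Dusp4 and Dusp2 at 5. The stretch of Dusp4 lies in 1 exon at chr8:34818424-34818465 (plus strand), and that of Dusp1 at chr17:26506583-26506624 (minus strand).

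Stim1 itself checks the labels. Its normalised read counts were 1999, 1969 and 1931 in Stat3C replicates 1, 2 and 3 and 811, 794 and 687 in Stim1KO Stat3C, and the groups did not overlap (log2 fold change -1.37, SE 0.08, adjusted p = 0.000287, limma). The table has 1 value per gene, so reads from exons outside the deletion count too. A normalised read count here is the number of reads on a gene divided by a size factor of its library. Log2 fold changes were taken on log2(value + 1), as the Stim1KO Stat3C mean less the Stat3C mean, which understates the change of low genes. Adjusted p-values come from limma over all 11947 genes with a mean of at least 10, with Benjamini-Hochberg adjustment, and a gene was called at an adjusted p under 0.05. Reads behind these values came to 16009755 to 51347367 per library, with the 2 deepest libraries both in Stat3C. For the 10 members they ranged from 18 reads (Spry2) to 6924 reads (Dusp2) in a library.

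Of the 10 members, 1 was called higher in Stim1KO Stat3C (Dusp4), none was called lower by limma, and 9 were not called. On the recovered reads, edgeR and voom also called none lower, and DESeq2 called 1 (Spry1). Over all tested genes 8.62% were called higher, 4.96% lower and 13.6% in either direction, so 1 of 10 is near the background. At an unadjusted p under 0.05 there were 3 members (Dusp4, Dusp16 and Spry1), against 31.1% of all genes, and 1 of these was lower (Spry1), against 14.0%. The same 3 members were those whose groups did not overlap, against 35.6% of all genes. The median log2 fold change of the members was 0.12, with 6 positive and 4 negative values, beside a median of -0.0011 over all tested genes. These shares give no result about the family as a whole, and the values follow member by member.

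**Figure D1:**
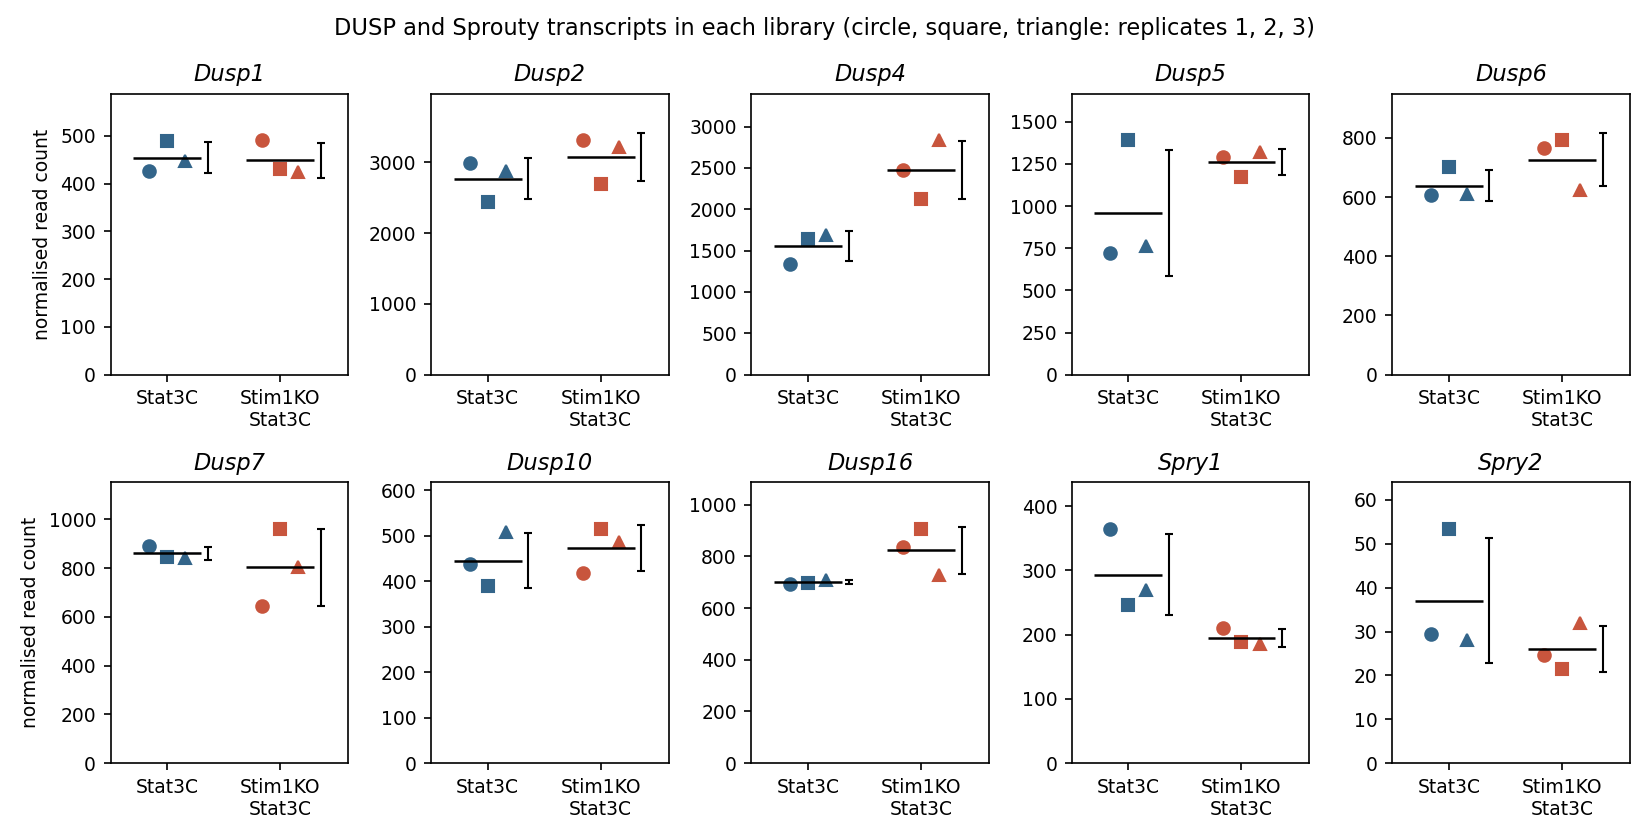
Normalised read counts (vertical axes, each from 0) of the 10 members in every library, with Stat3C in blue and Stim1KO Stat3C in red. Circles, squares and triangles are replicates 1, 2 and 3, horizontal lines are means, and vertical bars are ± 1 SD (n = 3). Dusp4 is the member whose groups lie farthest apart, and Dusp5 has 1 high Stat3C library (1390).

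The nuclear, inducible MKPs come first. Dusp4 (chromosome 8, 34807297 to 34819894, plus strand, GRCm38) encodes MKP-2, a nuclear phosphatase of ERK and JNK. Its normalised read counts were 1345, 1638 and 1685 in the Stat3C libraries, against 2472, 2123 and 2834 in Stim1KO Stat3C. Every Stim1KO Stat3C library lay above every Stat3C library. The means were 1556 ± 185 and 2476 ± 356 (SD, n = 3 each), a ratio of 1.59 and a log2 fold change of 0.67 (SE 0.12, 95% interval 0.39 to 0.95, adjusted p = 0.0120, limma). Dusp4 kept its call in 19 of 22 other ways of computing it. It missed the threshold without Stim1KO Stat3C replicate 1 (log2 0.66, adjusted p = 0.0559), with limma without a variance trend (adjusted p = 0.0555) and when replicate 3 of both groups was left out (log2 0.63, adjusted p = 0.0867).

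Dusp5 (chromosome 19, 53529109 to 53542431, plus strand) encodes a nuclear phosphatase specific for ERK, which also holds ERK in the nucleus. Its counts were 719, 1390 and 765 in the Stat3C libraries, against 1289, 1173 and 1323 in Stim1KO Stat3C. Replicates 1 and 3 of Stat3C were low, whereas Stat3C replicate 2 lay above all 3 Stim1KO Stat3C libraries, so the groups overlapped. Dusp5 was not called (log2 fold change 0.46, SE 0.22, 95% interval -0.05 to 0.98, adjusted p = 0.202, limma). Without Stat3C replicate 2 it was called higher (log2 0.76, adjusted p = 0.000226), and 2 members were then called higher and 1 lower, where 14.6% of all genes were called higher and 10.3% lower. Stat3C replicate 2 also stood apart in transcripts of other cells. The summed level of 3 listed erythroid markers was 442 normalised counts there and 3.88 to 52.0 in the other 5 libraries. The 4 myeloid markers summed to 126 there and to 2.99 to 28.6 in the others. All of the erythroid signal came from the row of the haemoglobin gene Hbb-bs, and Hba-a1 and Hbb-b1 were at 0 in every library. The part of such cells in the Dusp5 value was not tested. GENCODE places an antisense gene (AC137853.2) over 547 bases of the Dusp5 transcript, and no source used here gives the strand setting of the counting, so the 2 genes' reads may not be separable.

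Dusp2 encodes PAC-1, a nuclear phosphatase named for its presence in activated lymphocytes. Its counts were 2997, 2440 and 2876 in the Stat3C libraries, against 3311, 2693 and 3220 in Stim1KO Stat3C, with overlapping groups. The log2 fold change was 0.15 (95% interval -0.09 to 0.39, adjusted p = 0.355, limma). Dusp1 encodes MKP-1, an immediate early phosphatase of p38, JNK and ERK. Its counts were 425, 490 and 447 in the Stat3C libraries, against 490, 431 and 424 in Stim1KO Stat3C, so the highest and the lowest values of both groups nearly coincided. The log2 fold change of Dusp1 was -0.02 (95% interval -0.25 to 0.21, adjusted p = 0.916, limma), and its sign turned in 6 of 22 alternatives. These intervals leave room for a rise of Dusp2 by 0.39 on the log2 scale, or a fall of Dusp1 by 0.25, and so do not show that either gene was the same in both groups.

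The cytoplasmic MKPs Dusp6 (MKP-3) and Dusp7 (MKP-X) act mainly on ERK. Dusp6 stood at 607, 700 and 609 normalised counts in Stat3C and 764, 791 and 623 in Stim1KO Stat3C. Stim1KO Stat3C replicate 3 fell among the Stat3C values, and Dusp6 was not called (log2 fold change 0.18, 95% interval -0.08 to 0.44, adjusted p = 0.305, limma). Dusp7 stood at 893, 845 and 843 in the Stat3C libraries, against 645, 961 and 803 in Stim1KO Stat3C. Its 3 Stat3C values were close together, while the Stim1KO Stat3C values lay on both sides of them (log2 fold change -0.12, 95% interval -0.42 to 0.19, adjusted p = 0.582, limma). Without Stim1KO Stat3C replicate 1 the sign turned, to 0.03.

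Dusp10 (MKP-5) and Dusp16 (MKP-7) prefer the stress kinases JNK and p38 over ERK. Dusp16 (chromosome 6, 134715468 to 134792625, minus strand) stood at 694, 697 and 710 normalised counts in Stat3C, the tightest set of any member (coefficient of variation 1.27%), and at 835, 906 and 726 in Stim1KO Stat3C. The groups did not overlap, but Stim1KO Stat3C replicate 3 (726) lay close to Stat3C replicate 3 (710). Dusp16 was not called (log2 fold change 0.23, SE 0.09, 95% interval 0.02 to 0.44, unadjusted p = 0.0379 by limma, adjusted p = 0.138) and was called in none of the 22 alternatives. Dusp10 stood at 439, 389 and 509 in the Stat3C libraries, against 418, 515 and 488 in Stim1KO Stat3C. Both groups covered about the same range (log2 fold change 0.09, 95% interval -0.20 to 0.38, adjusted p = 0.658, limma). Without Stat3C replicate 2 the value was -0.0018.

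The Sprouty genes had the lowest fold changes of the 10. Spry1 (chromosome 3, 37639947 to 37644598, plus strand) encodes an inhibitor of RAS and ERK activation. Its counts were 365, 246 and 269 in the Stat3C libraries, against 211, 188 and 185 in Stim1KO Stat3C. All 3 Stim1KO Stat3C values lay below the lowest Stat3C value. The means were 293 ± 62.9 and 195 ± 14.2 (SD, n = 3 each), with a log2 fold change of -0.57 (SE 0.16, 95% interval -0.94 to -0.20), and Spry1 missed the threshold narrowly (adjusted p = 0.0533, limma). It passed in 4 of 22 alternatives, among them the fit without Stat3C replicate 2 (log2 -0.69, adjusted p = 0.0122) and DESeq2 on the recovered reads (log2 -0.61, adjusted p = 0.0190), and not with edgeR on the same reads (adjusted p = 0.0537). Without Stat3C replicate 1, the highest library, the value was -0.40 (adjusted p = 0.173). A provisional gene model on the opposite strand (Gm42922) covers 577 bases of the Spry1 transcript. Spry2 was near the lower end of what could be tested, at 29.4, 53.4 and 28.1 normalised counts in Stat3C and 24.7, 21.5 and 31.8 in Stim1KO Stat3C. These values rest on 18 to 106 reads per library, and the groups overlapped (log2 fold change -0.45, 95% interval -1.26 to 0.36, adjusted p = 0.420, limma). The highest value was that of Stat3C replicate 2, which also had the most Spry2 reads (106).

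**Figure D2:**
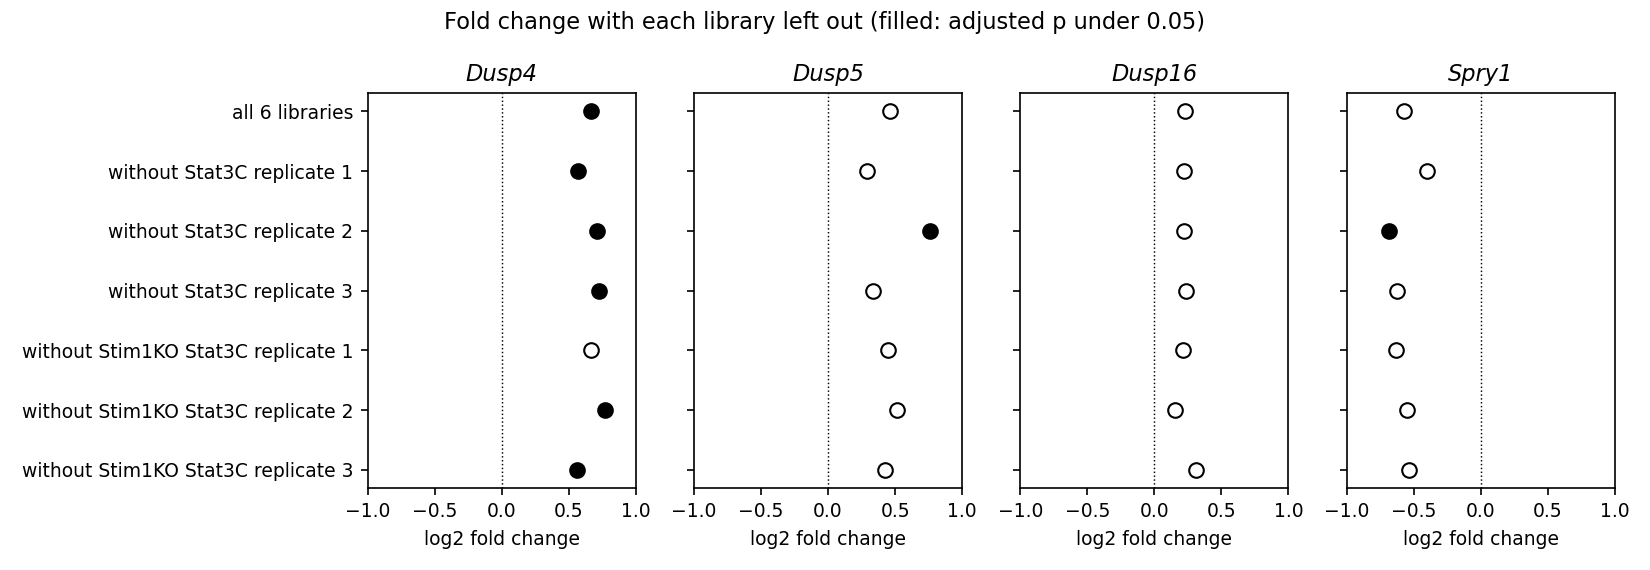
Log2 fold changes (horizontal axes, Stim1KO Stat3C minus Stat3C) of Dusp4, Dusp5, Dusp16 and Spry1 with all 6 libraries and with each library left out. Filled points had an adjusted p under 0.05 in limma. Dusp4 loses its call without Stim1KO Stat3C replicate 1, and Dusp5 and Spry1 gain one without Stat3C replicate 2.

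Replicate 3 of each group differed from replicates 1 and 2 in its sex-linked transcripts. Xist, the transcript of the inactive X chromosome, was at 8362 and 11549 normalised counts in the 2 libraries numbered 3 and at 1.37 to 3.53 in the other 4, and the Y-linked gene Ddx3y had 0 reads and 1 read in the former and 1008 to 1362 normalised counts in the latter. The Dusp4 difference was present in both sets, at 0.63 on the log2 scale over replicates 1 and 2 and 0.75 in replicate 3. The Spry1 difference was likewise similar, at -0.59 and -0.54. Dusp5 differed by 0.30 over replicates 1 and 2, which include Stat3C replicate 2, and by 0.79 in replicate 3. Dusp16 differed by 0.32 over replicates 1 and 2 and by 0.03 in replicate 3, and Spry2 by -0.76 and 0.17. With 1 library of each group in the set of replicate 3, no test of these gaps was made. With the 2 sets as a block in the limma fit, Dusp4 was again the only member called (log2 0.67, adjusted p = 0.00684).

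Other cell types also differed between the groups. The 4 listed B cell markers summed to 101 to 306 normalised counts in Stat3C and 16.1 to 35.8 in Stim1KO Stat3C, where Ms4a1 was at 0 in all 3 libraries. The 2 CD8 genes summed to 277 to 453 and 111 to 159. T cell markers, by contrast, were high throughout, with Cd3d, Cd3e, Cd3g and Cd4 summing to 16845 to 17370 and 19943 to 22896, and 3 of the 4 were called higher in Stim1KO Stat3C. The defining Th17 cytokine genes Il17a and Il17f were present in every library and called lower in Stim1KO Stat3C. In bulk RNA, a change in the number of cells of a kind and a change in RNA per cell cannot be told apart, and the part of B and CD8 T cells in the DUSP and Sprouty values was not tested.

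The members lay at very different levels. Per kilobase of the principal transcript in GENCODE, Dusp2 had the highest level in Stat3C, at 1714 ± 181 normalised counts per kilobase, followed by Dusp4 (568 ± 67.4) and Dusp5 (387 ± 152). Dusp7 (268 ± 8.78), Dusp6 (228 ± 19.0) and Dusp1 (228 ± 16.5) formed a middle group, and Dusp10 (160 ± 21.5), Dusp16 (137 ± 1.75) and Spry1 (106 ± 22.7) a lower one. Spry2 was lowest, at 17.7 ± 6.82 per kilobase. Among neighbours in this order, the library values of Dusp4 and Dusp5 overlapped, and so did those of Dusp6 and Dusp1. In Stim1KO Stat3C the order was the same except that Dusp6 (260 ± 32.3) and Dusp7 (250 ± 49.2) changed places, and their values overlapped. Dusp4 (904 ± 130) and Dusp5 (510 ± 31.8 per kilobase) no longer overlapped there, while Dusp7 and Dusp1 newly overlapped, as did Dusp10 and Dusp16.

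Replicate spread set what could be seen for each member. Within a group the coefficient of variation ran from 1.27% (Dusp16 in Stat3C) to 39.1% (Dusp5 in Stat3C), with Spry2 in Stat3C close behind at 38.5%. No library was the highest, or the lowest, of its group for more than 5 of the 10 members. Stat3C replicate 1 was the highest of its group for 3 members and the lowest for 5, Stat3C replicate 2 the highest for 4 and the lowest for 3, and Stim1KO Stat3C replicate 2 was the highest for 4 and the lowest for 4.

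Upstream sequence was available in the RefSeq promoter table (GRCm38.p6) for 9 of the 10 members, all but Dusp4. In the 250 bases before the start site, Dusp1 was the only one of the 9 with a full cAMP response element (TGACGTCA, both strands), the site of the calcium- and cAMP-regulated factor CREB, which 1.55% of 32851 promoters hold. It is shown with 12 bases on either side, at chr17:26508596-26508627 (minus strand), with the element in capitals.
Dusp1 upstream: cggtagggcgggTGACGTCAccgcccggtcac
Its first base lies 143 bases before the start. The shorter core TGACG, which is part of that element, was found upstream of Dusp1, Dusp5 and Dusp16 and in 17.8% of all promoters. None of the 9 held the AP-1 site TGANTCA (6.75% of all promoters), the NFAT-type site TGGAAA (18.6%), the ETS site CCGGAAG (6.91%), the EGR site GCGTGGGCG (0.536%) or the core of the serum response element (0.0609%), searched on both strands. A match is a run of letters and not evidence of binding, and sites outside these 250 bases were not searched.

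Phosphatases and inhibitors outside the 10 members were read from lists. Of 3 further MKP genes 2 could be tested, and neither was called by limma or DESeq2, nor passed an unadjusted p under 0.05 in limma. Dusp9 stood at 35.5, 36.8 and 43.6 normalised counts in Stat3C and 24.7, 58.0 and 71.7 in Stim1KO Stat3C (log2 fold change 0.28, adjusted p = 0.667, limma), and Dusp8 at 8.66 to 16.5 and 8.96 to 15.0 (log2 -0.03). Of 15 atypical DUSPs, which are small and lack the kinase-docking domain of the MKPs, 10 passed the filter on low values. Of these 1 was called higher, 1 lower and 8 not, where 8.62% of all tested genes were called higher and 4.96% lower. Dusp14, which dampens antigen receptor signalling, rose from 119, 124 and 142 to 375, 179 and 227 (log2 0.95, SE 0.25, adjusted p = 0.0443, limma). Styx, the inactive relative shown above, fell from 615, 599 and 651 to 492, 497 and 479 (log2 -0.35, SE 0.08, adjusted p = 0.0230, limma). In both genes the groups did not overlap, as in 35.6% of all tested genes, but neither call was firm. Dusp14 lost its call in 9 of 22 alternatives, among them the fits without either of replicates 1 and 3 in either group. Styx lost it in 7, among them the fits without any 1 library other than Stat3C replicate 2.

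Of 5 further Sprouty and SPRED genes, whose products also restrain RAS and RAF, 4 were tested and none was called by limma, edgeR, DESeq2 or voom, while 1 (Spry4) had an unadjusted p under 0.05 in limma. Spred2 stood at 650, 767 and 574 in the Stat3C libraries, against 782, 724 and 788 in Stim1KO Stat3C (log2 0.21, adjusted p = 0.228), and it was called in 1 of 22 alternatives, that without Stat3C replicate 2 (log2 0.32, adjusted p = 0.0317). Spred1 stood at 532 to 572 and 492 to 619 (log2 -0.0037, adjusted p = 0.985). Spry4 and Spred3 are named after their values were seen. Spry4 was not called (means of 14.4 and 26.2 normalised counts, log2 0.82, adjusted p = 0.149, limma) but passed in limma without a variance trend (adjusted p = 0.0274). Spred3 was not called (log2 0.49, adjusted p = 0.174) but passed without Stat3C replicate 2 (log2 0.75, adjusted p = 0.00644).

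The tyrosine phosphatases that bind MAP kinases through the same docking motif included the largest rise among the phosphatases tested here. Ptpn5 (chromosome 7, 47077795 to 47133684, minus strand), which encodes STEP, rose from 528, 693 and 578 to 1538, 1514 and 1312 normalised counts. The lowest Stim1KO Stat3C library lay far above the highest Stat3C library. The ratio of means was 2.43 and the log2 fold change 1.28 (SE 0.11, adjusted p = 0.00122, limma), and the call held in all 22 alternatives. Ptpn7, the haematopoietic tyrosine phosphatase of ERK and p38, rose by less, from 7110, 6957 and 7010 to 8374, 7757 and 8122 (log2 0.20, SE 0.05, adjusted p = 0.0303, limma), and lost its call in 9 of 22 alternatives. It missed the threshold without any 1 library other than Stat3C replicate 2. Ptprr, the other gene of this list, was too low to be tested.

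**Figure D3:**
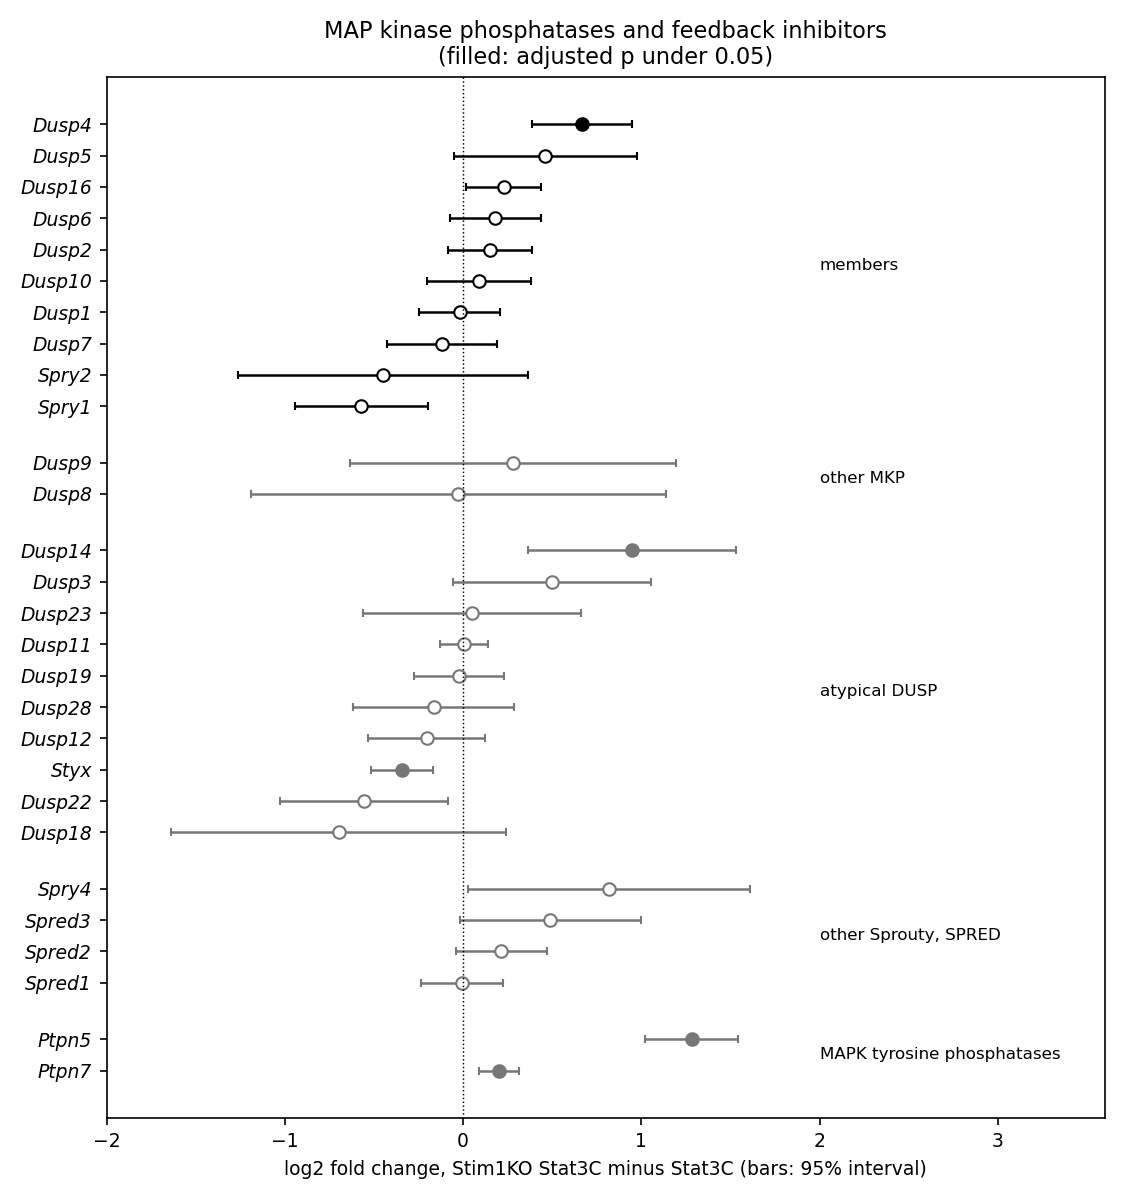
Log2 fold changes (horizontal axis, Stim1KO Stat3C minus Stat3C) with 95% intervals for the 10 members (black) and for the other phosphatases and inhibitors that could be tested (grey). Filled points had an adjusted p under 0.05 in limma: Dusp4 (0.67), Dusp14 (0.95), Styx (-0.35), Ptpn5 (1.28) and Ptpn7 (0.20).

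Counts for the kinases of the network are to be read against the 13.6% of all tested genes that were called. Of 9 tested MAP kinases 1 was called, Mapk11 (p38 beta), which rose from 609, 596 and 614 to 911, 1005 and 897 (log2 0.63, SE 0.07, adjusted p = 0.00233, limma) and missed the threshold only when replicate 3 of both groups was left out. The other 8, among them Mapk3 (ERK1), Mapk8 and Mapk9 (JNK1 and JNK2) and Mapk14 (p38 alpha), were not called. None of 7 MAP2 kinases was called by limma, edgeR, DESeq2 or voom, and 2 (Map2k1 and Map2k3) had an unadjusted p under 0.05 in limma. The most abundant were Map2k3, a kinase of p38, at 3685 to 3960 and 4018 to 4427 (log2 0.16, adjusted p = 0.105), and Map2k2, a kinase of ERK (MEK2), at 3727 to 3861 and 3607 to 3789 (log2 -0.05, adjusted p = 0.509). Of 14 RAF and MAP3 kinase genes, Map3k8, which encodes the ERK-activating kinase TPL2, rose (1203, 1365 and 1194 to 1543, 1649 and 1558, log2 0.34, adjusted p = 0.0206), Ksr1, a scaffold of the RAF-MEK-ERK chain, fell (log2 -0.21, adjusted p = 0.0492), and 12 were not called. Map3k8 lost its call in 8 of 22 alternatives and Ksr1 in 14, both of them without any 1 library other than Stat3C replicate 2.

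Higher up, both activators and brakes of RAS were among the genes called higher, where 8.62% of all tested genes were called higher and 4.96% lower. Of 11 tested RAS genes and exchange factors 2 rose and 1 fell. Rasgrp1, the exchange factor that diacylglycerol activates in T cells, rose from 970, 992 and 906 to 1486, 1730 and 1311 (log2 0.65, SE 0.10, adjusted p = 0.00671, limma). The adaptor Grb2 rose (4096, 5324 and 4351 to 5919, 5589 and 6031, log2 0.36, adjusted p = 0.0426), and the RAS relative Rras2 fell (908, 896 and 878 to 589, 698 and 770, log2 -0.39, adjusted p = 0.0409). Grb2 lost its call in 13 of 22 alternatives and Rras2 in 7, Rras2 among others without Stat3C replicate 1 or 3, or replicate 1 or 2 of Stim1KO Stat3C, and Grb2 without any 1 library other than Stat3C replicate 2. Of 8 tested RAS GTPase-activating genes, which return RAS to its inactive state, 3 rose and none fell. Rasal3 rose from 5762, 5924 and 5564 to 8159, 8337 and 7678 (log2 0.49, SE 0.05, adjusted p = 0.00165, limma), Rasa1 from 936, 940 and 892 to 1467, 1327 and 1327 (log2 0.57, adjusted p = 0.00237), and Rasa3 from 865, 1050 and 851 to 1411, 1194 and 1428 (log2 0.55, adjusted p = 0.0150). Rasa3 lost its call in 7 of 22 alternatives, including those without replicate 1 or 3 of either group, so that the count was then 2.

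Genes that ERK signalling is known to induce moved in both directions. Of 18 tested, 2 rose, 2 fell and 14 were not called by limma, with a median log2 fold change of 0.02. Over all tested genes limma called 8.62% higher and 4.96% lower. On the recovered reads, voom called 2 higher and 3 lower, beside 12.2% of all its tested genes in either direction. DESeq2 called 2 higher and 4 lower, beside 17.7% of all genes it tested. Etv5, an ETS factor downstream of ERK, rose from 174, 249 and 199 to 705, 679 and 731 (log2 1.78, SE 0.14, adjusted p = 0.000564, limma). Phlda1, an activation-induced gene of T cells, rose from 112, 184 and 115 to 472, 299 and 296 (log2 1.37, adjusted p = 0.0118). Fos fell from 565, 435 and 450 to 277, 270 and 213 (log2 -0.93, adjusted p = 0.00654), and Nr4a1 fell as well (log2 -1.08, adjusted p = 0.000459). Etv5 and Nr4a1 were called in all 22 alternatives, and Phlda1 and Fos in all but the one without replicate 3 of both groups. Dusp4 and Etv5 were thus both higher in Stim1KO Stat3C. The immediate early genes Fos and Nr4a1 were lower, and the immediate early phosphatase Dusp1 was not called. Over the 18 ERK response genes 9 values were positive and 9 negative, and no contrast between the named genes was tested. Of the other immediate early genes, Egr1 (log2 0.11), Egr2 (0.42) and Junb (0.04) were not called by limma. Nor were Jun (-0.10) and Ier2 (-0.03). Egr3 (-0.72) and Fosb (-1.58) were not called either, but had unadjusted p-values of 0.0330 and 0.0156 in limma. Under 0.05 and lower were 14.0% of all genes. The groups of Fosb did not overlap, at 224, 178 and 169 against 134, 71.9 and 24.9 (adjusted p = 0.0817, limma).

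Of 10 tested kinases activated by MAP kinases, the p38 targets Mapkapk2 (10412, 11356 and 11202 to 14500, 13160 and 12896, log2 0.30, adjusted p = 0.0187, limma) and Mapkapk3 (3030, 3187 and 3190 to 4040, 3511 and 4021, log2 0.30, adjusted p = 0.0255) rose and 8 were not called. Mapkapk2 lost its call in 6 of 22 alternatives and Mapkapk3 in 7, both without replicate 1 of either group or replicate 3 of Stat3C, Mapkapk2 also without replicate 2 and Mapkapk3 without replicate 3 of Stim1KO Stat3C. Over all of these lists, without the 10 members, 95 genes were tested, 14 were called higher and 5 lower (20%, against 13.6% of all genes), and the median log2 fold change was 0.09. The lists were chosen with earlier results of these data known, so these shares are no test of the network.

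**Figure D4:**
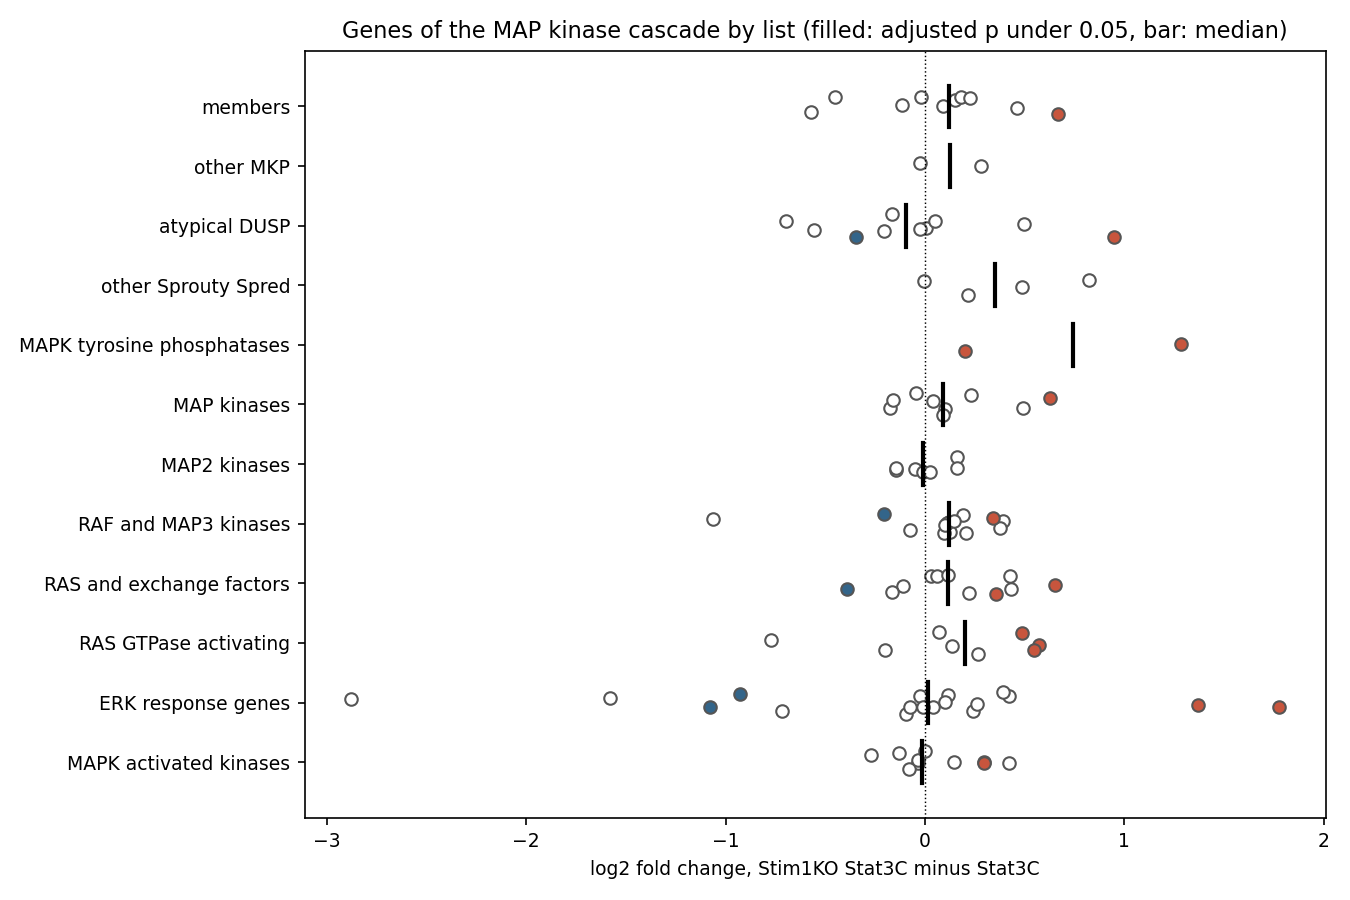
Log2 fold changes (horizontal axis, Stim1KO Stat3C minus Stat3C) of every tested gene of the 10 members and 11 lists of the MAP kinase network, 1 point per gene and vertical bars at list medians. Red and blue points were called higher and lower (adjusted p under 0.05, limma), and open points were not called. Most points lie within 0.5 of 0, and the ERK response genes reach from -2.88 (Ccnd1, not called) up to 1.78 (Etv5).

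By Pearson correlation of log2(value + 1) over the 6 libraries, the genes most like Dusp4 among 10250 with a mean of at least 50 were Kremen1 (r = 0.994), Syp (0.992), Dcaf15 (0.992), Dpp7 (0.990) and Stard3 (0.989). These values are a description over 6 libraries that share the split by genotype and the same depth differences. The sizes of change differed among them: Syp rose by 1.05 on the log2 scale (adjusted p = 0.0187, limma), whereas Kremen1 stood at 685 and 780 normalised counts on average, a log2 fold change of 0.19 that was not called (adjusted p = 0.116).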

How the data were processed

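Poly(A) RNA, 100 ng per library, was made into stranded libraries (labels' protocols). Among the tools listed are HTSeq 0.11.1, TopHat2 2.1.1 and DESeq2 1.22.2, with the build mm10, per the submitters' processing notes. No source used here gives the gene models or counting settings. The deposited signal is a read count per gene divided by 1 size factor per library: in each column, 100% of nonzero values came out as whole multiples of 1 step (tolerance 0.01). Rows with a date for a name (27 of 23420, at most 0.217% of the reads of any 1 library) were left out.

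The test was limma 3.58.1 (R 4.3.3) with a variance trend on log2(value + 1), all 6 libraries, no covariate, mean of at least 10, two-sided. Whole reads were recovered for edgeR 4.0.16, DESeq2 1.42.0 and voom, run as alternatives: edgeR called 1590 genes and DESeq2 2253, beside 1623 by limma. The steps were run on simulated counts in which no library stood apart, unlike Stat3C replicate 2 here. That run checked the code and does not bear on the calls in these data. Replicates were numbered in accession order, and whether they came from separate mice is not stated for each, so p-values measure the spread between these libraries, which may be technical in part. No 2 libraries agreed within sampling noise. Chi-square per degree of freedom between the reads of 2 libraries was 10.3 for Stat3C replicates 1 and 3. It was 8.83 to 14.1 within Stim1KO Stat3C. Stat3C replicate 2 was at 50.9 against replicate 1 and 35.3 against replicate 3 of its own group. Pairs across the groups were at 37.9 to 70.4. This measure rises with read depth.

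The members and lists were chosen with earlier results of these data known. Genes named were all members, Stim1, and from each list up to 4 called genes by smallest adjusted p, or 2 by highest mean where none was called, and the 5 genes most like the member with the smallest adjusted p. Ptprr, Dusp22, Spry4, Spred3, Map2k1, Ccnd1 and Cd79b were added after their values were seen. So were AC137853.2, Gm42922, Xist, Ddx3y, and the kinases and immediate early genes named as not called.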

Additional observations from a re-analysis of the deposited data

How the results depend on the processing

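Direction and call were recomputed under 22 alternatives (21 for Spry2, Spry4 and Dusp9 and 19 for Dusp8, which stricter filters leave out): pseudocounts of 0.5 and 5, filters at a mean of 1 or 50 or none, TMM and upper quartile scaling, no variance trend, edgeR (with and without its filter), DESeq2 and voom on recovered reads, and each library left out, plus 4 chosen after seeing the data (edgeR without Stim1KO Stat3C replicate 3, whose step is close to 1, reads thinned to equal depth, replicates 1 and 2 of each group only, and limma with the libraries in which Xist exceeded Ddx3y as a block). No scaling moved the median log2 fold change of all genes by over 0.1. The count of genes called was 827 without a variance trend, 1007 by edgeR without Stim1KO Stat3C replicate 3, 83 with replicates 1 and 2 only (2 libraries a group), and, with 1 library left out, 618 (without Stat3C replicate 1) to 2939 (without Stat3C replicate 2). The number of members called higher was 0 without a variance trend and 0 with replicates 1 and 2 only, and 0 to 2 with 1 library left out. The number called lower was 1 with DESeq2, 1 with a mean of at least 50 and 1 with upper quartile scaling (Spry1 each time), and 0 to 1 with 1 library left out. The cause was not tested.

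Values near 0 turned sign without being called. Dusp1 was 0.0079 by edgeR without Stim1KO Stat3C replicate 3, 0.0046 with thinned reads, 0.010 with replicates 1 and 2 only, and -0.084 to 0.038 with 1 library left out. Dusp8 was 0.13 by edgeR without Stim1KO Stat3C replicate 3, 0.37 with replicates 1 and 2 only and -0.24 to 0.24 with 1 library left out. Spred1 was 0.029 with thinned reads and -0.090 to 0.076 with 1 library left out. With 1 library left out, Dusp7 ran from -0.26 to 0.031, Dusp9 from -0.021 to 0.73 and Dusp10 from -0.0018 to 0.19. None of the other 31 genes recomputed in this way changed direction. With the Xist block, 1816 genes were called, 1 member was higher and none lower, and Dusp14, Ksr1 and Grb2 lost their calls (adjusted p = 0.0567, 0.0544 and 0.0531, limma). Spry2 and Dusp8 rest on the fewest reads of the members and other MKP genes tested. No paired analysis was possible because the library numbers in the titles differ between the groups, so that the labels pair no libraries.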
